A study of Mus musculus with 12 samples.

Results

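Disease-associated microglia genes are a set that microglia raise around plaques, dying cells and demyelinated tissue. Here 10 of them were followed in microglia of healthy adult brain: Spp1, Igf1, Clec7a, Itgax, Axl, Gpnmb, Lpl, Fabp5, Cst7 and Lgals3. They were taken by symbol from a table of 23337 genes, and all 10 were found. The table holds bulk RNA sequencing of 12 libraries, 3 each from cortex, hippocampus, striatum and cerebellum. All 4 groups share wild type genotype, the C57BL/6N strain, male sex, an age of postnatal day 60 and no treatment named in the labels. Each library came from 3000 live sorted cells of the TMEM119+ gate, which is also CD11b+ with low CD45, after tissue from 3 to 5 mice had been combined. The labels number the libraries 1 to 3 within a region. They do not say what a number stands for, or that the 3 pools of a region held different mice, so every p-value is set against a spread of libraries that may be technical.

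In the resting brain, microglia survey the tissue and express a homeostatic program that includes Tmem119 and P2ry12. Near amyloid, myelin debris or apoptotic neurons, they lower that program and raise lipid handling, lysosomal and phagocytic genes. A related state is found in the developing white matter of young animals, where microglia that make Spp1, Igf1, Gpnmb, Itgax and Clec7a gather as proliferative-region-associated cells. In the adult brain without disease such cells are known to be rare.

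The libraries held between 6479839 (striatum 2) and 14833340 (cortex 2) counts. Striatum 2 stood apart: its log2 expression correlated with the other 11 libraries at 0.748 to 0.771, against 0.858 to 0.936 among those 11, and 10929 genes had a count in it against 12214 to 13614 in the others. For some of the values that rest on it, the value without it is given too. Microglia markers were high, with P2ry12, the ADP receptor of microglial processes, at region means of 4183 to 5096 CPM (counts scaled to a fixed library total) and Tmem119 at 1733 to 2122. The sum of 7 endothelial markers was 15.7 to 47.7 CPM, with Pecam1 up to 42.3, Kdr up to 8.59, Esam at 0 in all 12 libraries and Cldn5 at 0 in 11.

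Since many of the genes below varied together across libraries, the promoters of 4 of them are shown side by side. RefSeq promoters, 250 bases before to 50 after the start site on GRCm38.p6, matched 8 of the 10 genes. The letters TGANTCA (the AP-1 element) and GAGGAAG (a PU.1 element, PU.1 being the lineage factor of macrophages) are in capitals, searched on both strands. The 4 shown were picked because their windows hold such letters. AP-1 letters occur in 7.81% of 32851 promoters of this length and PU.1 letters in 13.6%. The windows are chr5:104434861-104435160 for Spp1, chr10:87860861-87861160 for Igf1, chr7:128129300-128129599 for Itgax and chr6:49036268-49036567 for Gpnmb, all on the plus strand.
Spp1: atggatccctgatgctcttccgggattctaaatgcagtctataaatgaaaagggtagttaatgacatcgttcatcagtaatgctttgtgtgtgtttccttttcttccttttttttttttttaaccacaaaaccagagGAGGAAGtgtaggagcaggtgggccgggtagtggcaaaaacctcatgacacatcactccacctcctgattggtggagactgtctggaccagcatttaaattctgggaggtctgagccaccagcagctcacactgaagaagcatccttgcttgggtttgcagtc
Igf1: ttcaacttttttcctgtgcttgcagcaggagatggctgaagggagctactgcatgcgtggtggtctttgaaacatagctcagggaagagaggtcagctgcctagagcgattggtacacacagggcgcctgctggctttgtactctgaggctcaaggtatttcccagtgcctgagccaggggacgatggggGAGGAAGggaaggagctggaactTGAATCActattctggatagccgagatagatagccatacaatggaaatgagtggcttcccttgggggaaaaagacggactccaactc
Itgax: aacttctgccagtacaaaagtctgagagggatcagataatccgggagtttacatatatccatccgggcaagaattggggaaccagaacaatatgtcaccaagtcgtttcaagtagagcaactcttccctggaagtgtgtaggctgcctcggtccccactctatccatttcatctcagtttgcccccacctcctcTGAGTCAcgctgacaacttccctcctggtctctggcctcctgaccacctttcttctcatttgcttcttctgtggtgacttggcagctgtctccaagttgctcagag
Gpnmb: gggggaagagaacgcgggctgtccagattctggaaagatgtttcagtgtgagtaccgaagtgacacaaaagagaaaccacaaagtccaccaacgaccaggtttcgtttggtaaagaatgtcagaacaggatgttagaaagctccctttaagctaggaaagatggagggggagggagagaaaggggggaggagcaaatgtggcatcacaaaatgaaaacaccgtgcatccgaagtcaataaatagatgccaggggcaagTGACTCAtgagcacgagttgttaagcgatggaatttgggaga
The PU.1 letters began 113 bases before the start of Spp1 and 60 before that of Igf1. The AP-1 letters began 37 bases before the start of Igf1, 56 before that of Itgax and 8 bases into Gpnmb. Both windows of Clec7a, a second window of Spp1 and the window of Lgals3 held none of the letters searched. Of the other matched genes, Cst7 held the AP-1 letters and Axl the PU.1 letters, and the E-box CACGTG (7.15% of promoters) and the M-box TCATGTG (3.77%), read by factors of the MITF family, were in none. These matches are letters in a window and not measured binding.

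No difference between brain regions was detected for these genes. Their levels differed from library to library within each region, most for Gpnmb, Itgax, Lgals3 and Spp1 by the SD within regions and least for Lpl. In bulk libraries, fewer cells with a gene on and less RNA per cell cannot be told apart. No gene of the 10 passed the test over the 4 regions (edgeR quasi-likelihood, Benjamini-Hochberg adjusted p = 1.00 for each), and 0% of the 12217 genes tested passed it. All 10 genes passed the filter on low counts.

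**Figure D1:**
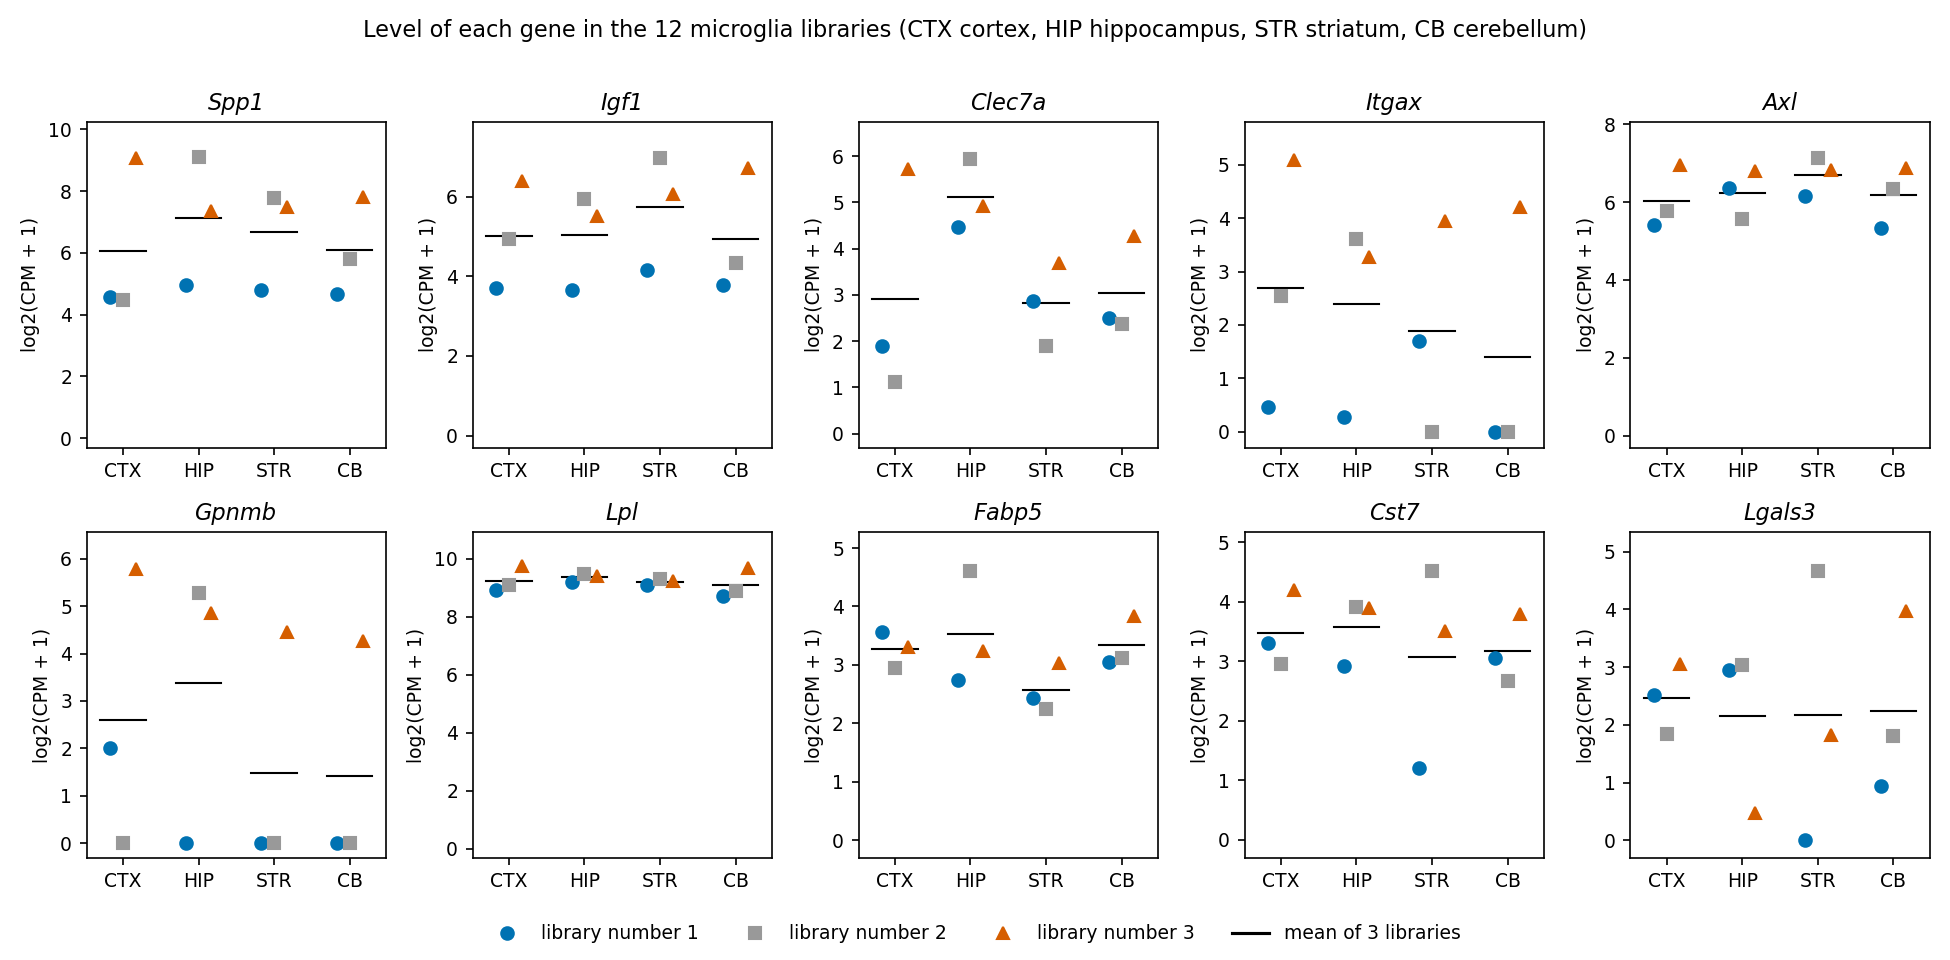
Log2(CPM + 1) of each of the 10 genes (vertical axis) in the 4 regions (horizontal axis), with a point for each library, its shape and color for the library number and a bar for the mean of 3 libraries. The points of a region spread over most of the range of the gene for Spp1 and Gpnmb. Those of Lpl lie close together on the axis shown, although in cortex and cerebellum they cover most of its narrow range.

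Spp1 and Igf1 encode secreted proteins. Spp1 (osteopontin; chromosome 5, 104435111 to 104441053, GRCm38) is a secreted phosphoprotein that binds integrins and CD44. It was at 23.0, 21.4 and 539 CPM in cortex 1 to 3, at 29.8, 553 and 161 in hippocampus, at 26.7, 217 and 177 in striatum, and at 24.6, 54.2 and 225 in cerebellum. A low level of 21.4 to 29.8 CPM was present in 5 libraries, among them all 4 with number 1, and the remaining 7 were at 54.2 or above. The highest library of a region exceeded the lowest 25.3-fold in cortex, 18.5-fold in hippocampus, 8.11-fold in striatum and 9.15-fold in cerebellum. Region means were 195 ± 299, 248 ± 272, 140 ± 100 and 101 ± 108 CPM in the same order (SD, n = 3 each). Their 2.45-fold range is smaller than any of those 4, but means of 3 libraries vary less than single libraries. Without striatum 2 the striatum mean was 102 CPM. All 4 regions overlapped. The annotation places 309 exon bases of Gm42793 on the same strand within Spp1 exons, so reads there may have been shared.

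Igf1 (chromosome 10, 87858265 to 87937047) encodes insulin-like growth factor 1, which supports neurons and oligodendrocytes. Its levels were 12, 29.4 and 82.7 CPM in cortex, 11.6, 60.03 and 45 in hippocampus, 16.7, 124 and 66.0 in striatum, and 12.6, 19.1 and 103 in cerebellum. The 4 number-1 libraries had the 4 lowest values, between 11.6 and 16.7 CPM. Striatum had the highest mean, 69.0 ± 53.8 CPM, and hippocampus the lowest, 38.9 ± 24.8 (SD, n = 3 each). Striatum 2 was the highest of all libraries for this gene, and without it the striatum mean was 41.4 CPM, close to the other regions.

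The 4 receptors and surface proteins were low in most libraries apart from Axl. Clec7a (dectin-1; chromosome 6, 129461591 to 129472785) is the receptor for fungal beta-glucan that signals through Syk. It was at 2.73, 1.16 and 51.7 CPM in cortex, 21.2, 60.3 and 29.5 in hippocampus, 6.27, 2.75 and 11.96 in striatum, and 4.63, 4.14 and 18.3 in cerebellum. Every hippocampus library lay above every striatum and cerebellum library, and cortex 3 lay among the hippocampus values. This was the widest difference between region means, 37.0 ± 20.6 CPM in hippocampus against 6.99 ± 4.65 in striatum, a 5.29-fold range. It did not pass over the 4 regions (edgeR, unadjusted p = 0.182, adjusted p = 1.00).

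Itgax (CD11c; chromosome 7, 128129526 to 128150657) encodes the alpha chain of an integrin of dendritic cells and of activated microglia. It was at 0.380, 4.79 and 33.0 CPM in cortex, 0.211, 11.2 and 8.63 in hippocampus, 2.25, 0 and 14.3 in striatum, and 0, 0 and 17.6 in cerebellum. The number-3 library was the highest of its region in cortex, striatum and cerebellum, and hippocampus 2 in hippocampus. In cerebellum the highest library was at least 50.7-fold above the library numbered 1, which had no count, taking 3 counts in that library as the floor. Its partner chain Itgb2, the common beta 2 integrin, was at 267 to 492 CPM in all 12.

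Axl (chromosome 7, 25756500 to 25788924) is a receptor kinase of the TAM family that takes up apoptotic cells through the bridging ligand Gas6. Its levels were 41.2, 53.6 and 122 CPM in cortex, 81.4, 46.6 and 110.1 in hippocampus, 69.7, 139 and 111 in striatum, and 39.5, 80.1 and 116 in cerebellum. The number-3 libraries lay close to each other, between 110.1 and 122 CPM, above every number-1 library. Over all 12 libraries the range was 3.53-fold, and region means differed 1.48-fold. The family member Mertk was at 154 to 595 CPM and Gas6 at 1081 to 1586.

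Gpnmb (chromosome 6, 49036518 to 49058182) encodes a membrane glycoprotein of lysosomes and of foamy macrophages. It was either absent or clearly present: 0 counts in 6 libraries, and at least 152 counts in 5 of the other libraries. The levels were 3.04, 0 and 53.7 CPM in cortex, 0, 37.6 and 27.7 in hippocampus, 0, 0 and 21.0 in striatum, and 0, 0 and 18.2 in cerebellum. The 5 libraries at 18.2 CPM or more were the 4 with number 3 and hippocampus 2, and the 3.04 CPM of cortex 1 rested on 40 counts. Against a floor of 3 counts in the library at 0, cortex 3 was at least 277-fold above cortex 2 and hippocampus 2 at least 119-fold above hippocampus 1. A count of 0 allows up to 0.194 CPM in the deepest library and 0.485 in striatum 2, where these floors cover counting error only.

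Lpl and Fabp5 handle fatty acids. Lpl (lipoprotein lipase; chromosome 8, 68880555 to 68906932) releases fatty acids from triglycerides. It was at 482, 546 and 849 CPM in cortex, 585, 712 and 682 in hippocampus, 540.0, 623 and 605 in striatum, and 419, 472 and 823 in cerebellum. Lpl was expressed in every library and had the narrowest range of the 10 genes, 2.03-fold, with cortex 3 and cerebellum 3 at the top. Region means lay between 571 ± 219 CPM in cerebellum and 659 ± 66.2 in hippocampus (SD, n = 3 each), a 1.15-fold range.

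Fabp5 (chromosome 3, 10012585 to 10016610) encodes a fatty acid carrier of the cytoplasm. It was at 10.9, 6.73 and 8.88 CPM in cortex, 5.69, 23.4 and 8.47 in hippocampus, 4.38, 3.72 and 7.21 in striatum, and 7.30, 7.66 and 13.3 in cerebellum. Striatum had the lowest mean, and its libraries did not overlap those of cerebellum. The mean was 12.5 ± 9.50 CPM in hippocampus, carried by hippocampus 2, and 5.10 ± 1.85 in striatum (5.79 without striatum 2). A processed pseudogene, Fabp5l2, is close in sequence and is not among the symbols of the table, so the Fabp5 counts are uncertain. Fabp5 levels also correlated with the number of genes above 0 in a library (r = 0.77, n = 12), and the part of this in the striatum values was not tested.

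Cst7 and Lgals3 were low. Cst7 (cystatin F; chromosome 2, 150570415 to 150578944) inhibits cysteine cathepsins within the endolysosome. It was at 8.89, 6.73 and 17.2 CPM in cortex, 6.53, 14.0 and 13.9 in hippocampus, 1.30, 21.8 and 10.4 in striatum, and 7.30, 5.39 and 12.9 in cerebellum. Region means were nearly level, from 8.54 ± 3.92 CPM in cerebellum to 11.5 ± 4.30 in hippocampus, while striatum alone spanned 16.8-fold between 1.30 and the 21.8 CPM of striatum 2. The striatum mean of 11.2 ± 10.3 CPM was 5.84 without that library.

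Lgals3 (galectin-3; chromosome 14, 47373860 to 47386167) encodes a lectin that binds beta-galactosides and gathers at damaged lysosomes. It was at 4.71, 2.59 and 7.31 CPM in cortex, 6.75, 7.20 and 0.389 in hippocampus, 0, 24.4 and 2.53 in striatum, and 0.927, 2.5 and 14.7 in cerebellum. High and low libraries were scattered over the regions and numbers: the highest value belonged to striatum 2 and the next to cerebellum 3. Striatum had the highest mean, 8.98 ± 13.4 CPM, and without striatum 2 it had 1.27.

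Levels were also divided by the union of all annotated exons of a gene, 1648 bases for Spp1, 10478 for Lpl and 3567 for Fabp5. A transcript that lacks part of those bases would have a higher level, so the order of genes is rough. Per kilobase of exon, Spp1 and Lpl led with medians over the 12 libraries of 65.4 and 56.8 CPM per kb. Axl followed at 16.04 and Cst7 at 9.77. Igf1 (3.76), Clec7a (3.46), Fabp5 (2.10) and Lgals3 (1.964) came next, and Itgax (0.733) and Gpnmb (0.233) were lowest. The order of Spp1 and Lpl was not stable between libraries: per kb, Spp1 ran from 13.0 to 335 and Lpl from 39.9 to 81.1. Igf1, Clec7a, Fabp5 and Lgals3 overlapped over most of their ranges.

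Between pairs of regions, log2 differences of the 10 genes lay between −2.39 and 1.00 over 60 comparisons, and none passed (edgeR, 0 at an adjusted p under 0.05, 0 at an unadjusted one, and 0% of all genes called in each pair). Over the 4 regions, 222 of the 12217 genes were at an unadjusted p under 0.05 in edgeR, 280 in limma-voom and 401 in DESeq2. DESeq2 called 5 of the 12217 genes over the 4 regions and 0 to 13 in a pair of regions, and limma-voom 0 in each. None of the 10 genes was among those called. Clec7a alone of the 10 was at an unadjusted p under 0.05 in these tools: over the 4 regions in limma-voom (adjusted p = 0.993), in the 3 pairs with hippocampus in limma-voom, and in striatum minus hippocampus in DESeq2 (adjusted p = 0.738). The 95% intervals differed in width: to either side they reached 0.56 on the log2 scale for Lpl (1.47-fold) and 1.04 for Axl (2.06-fold), but 2.76 for Spp1 (6.78-fold) and 5.44 for Gpnmb (43.3-fold). They were also wide for Itgax (23.6-fold), Lgals3 (10.3-fold) and Clec7a (5.54-fold). Differences of several fold could thus go undetected for these as for Spp1 and Gpnmb. The intervals are not adjusted for the 12217 genes tested, so a difference beyond the interval of Lpl could also fail to pass.

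The libraries of a pair of regions did not overlap in 3 of the 60 comparisons. Among all genes this held for 6.69% in hippocampus and cortex, 10.6% in striatum and cortex, and 6.75% in cerebellum and cortex, where 0 of the 10 did so. Clec7a in striatum minus hippocampus had a log2 difference of −2.39 with an SE of 1.18 (95% interval −4.95 to 0.16; edgeR, adjusted p = 0.948), where 11.5% of genes did not overlap. Without striatum 2 this difference was −2.01. In cerebellum minus hippocampus its difference was −2.04 (SE 1.16, interval −4.56 to 0.48), where 7.63% did not. Fabp5 in cerebellum minus striatum was at 0.88 (SE 0.69, interval −0.62 to 2.37), where 6.34% did not. Cerebellum lay below the mean of the other 3 regions for 8 of the 10 genes, with a median log2 difference of −0.26 against 0.03 over all genes tested. None of these 10 differences passed.

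**Figure D2:**
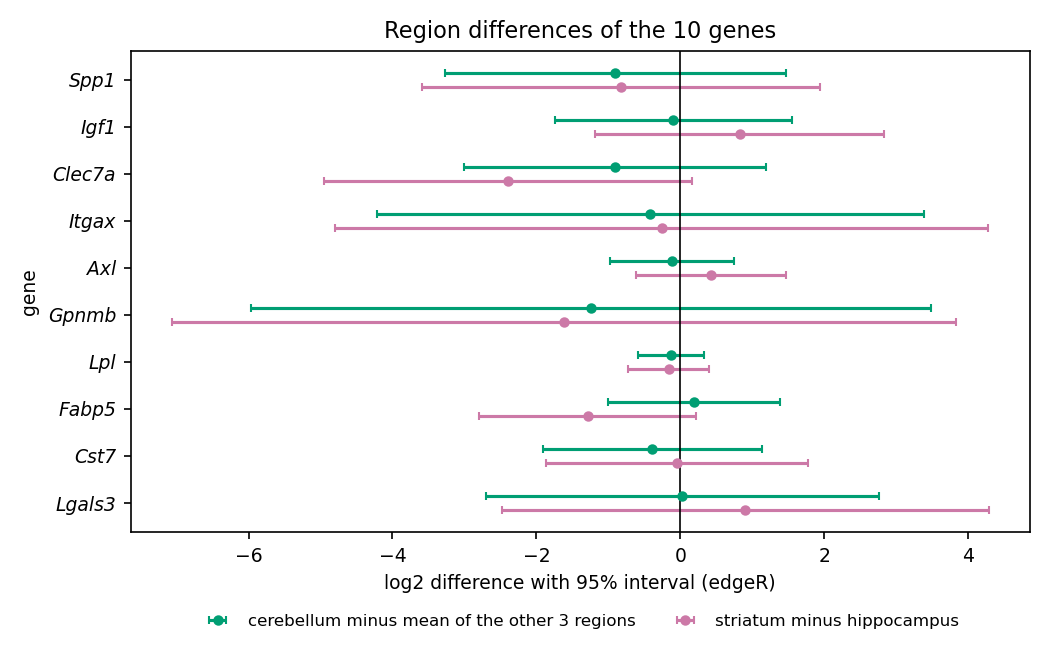
Log2 differences of the 10 genes (vertical axis) with 95% intervals (horizontal axis) for cerebellum minus the mean of the other 3 regions and for striatum minus hippocampus. Every interval crosses 0, and the lowest estimate is the −2.39 of Clec7a in striatum minus hippocampus.

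The spread of these genes lay within regions. On log2 CPM with a prior count of 2, the SD within regions had a median of 1.53 over the 10 genes and 0.573 over all 12217, whereas the SD of the 4 region means had medians of 0.444 and 0.302. The share of the sum of squares that lay between regions had a median of 10.7% for the 10 genes and 23.5% for all genes. Gpnmb varied most within regions (SD 4.04, at the 99.99th percentile of all genes), followed by Itgax (3.17), Lgals3 (2.29) and Spp1 (2.05). Lpl varied least (0.35, at the 22.5th percentile). Clec7a (37.9%) and Fabp5 (37.5%) had the largest shares between regions and Lgals3 the smallest (3.64%; 28.7% without striatum 2). Single libraries moved the median share of the 10 genes: it was 19.6% without cortex 3, 18.9% without hippocampus 1, 19.3% without striatum 1, 6.60% without cerebellum 2 and 25.6% without cerebellum 3. Without cerebellum 3 the median over all genes was also 25.6%, so the gap between the 10 genes and all genes rests on that library. Without striatum 2 the medians were 13.9% and 23.0%.

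**Figure D3:**
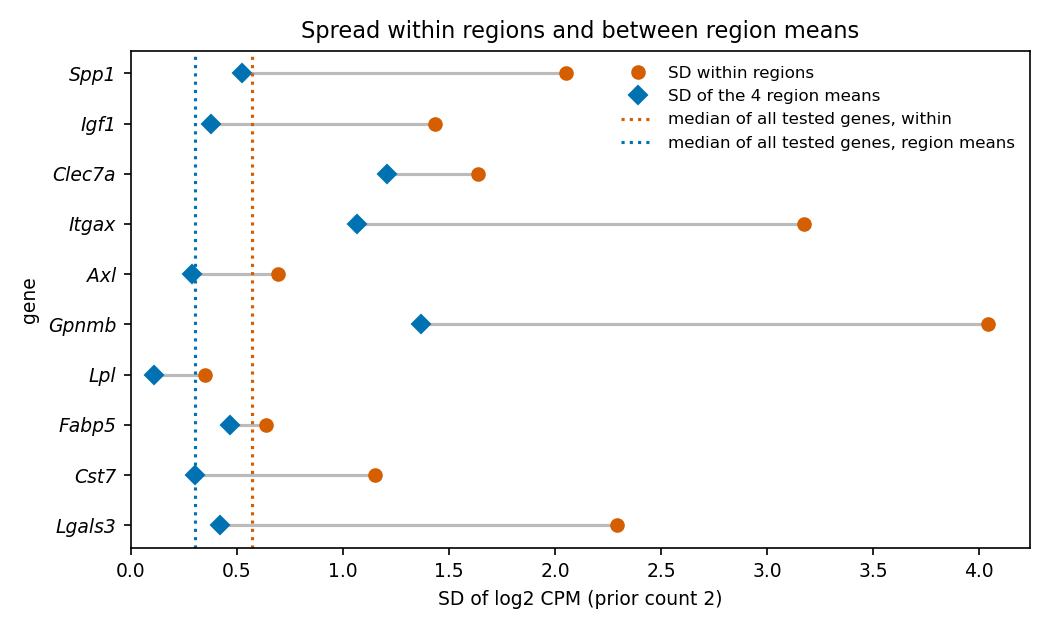
SD of log2 CPM (horizontal axis) of each gene within regions (orange points) and of its 4 region means (blue diamonds), with dotted lines at the medians over all tested genes. For all 10 genes the orange point lies to the right of the blue diamond, from the narrow gap of Fabp5 to the wide gap of Gpnmb. The medians over all tested genes have the same order, since a mean of 3 libraries varies less than a single library.

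Most of the 10 genes were higher in the number-3 than in the number-1 libraries. All 4 number-3 libraries lay above all 4 number-1 libraries for 7 of the 10 genes, namely Spp1, Igf1, Itgax, Axl, Gpnmb, Lpl and Cst7, and 4.62% of all genes tested showed that order. With Clec7a, 8 genes were higher in number 3 than in number 1 of the same region in all 4 regions, which held for 12% of all genes. For Spp1 the number-3 libraries held 161 to 539 CPM and the number-1 libraries 23.0 to 29.8. For Igf1 they held 45 to 103 against 11.6 to 16.7, and for Itgax 8.63 to 33.0 against 0 to 2.25. Lpl was at 605 to 849 against 419 to 585.

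Fabp5 and Lgals3 did not share this order: their number-3 libraries (7.21 to 13.3 and 0.389 to 14.7 CPM) overlapped number 1 (4.38 to 10.9 and 0 to 6.75). The number-2 libraries were mixed, with Spp1 at 21.4 CPM in cortex 2 and 54.2 in cerebellum 2, but at 553 in hippocampus 2 and 217 in striatum 2. Accordingly, number 3 lay above all of number 2 for 0 of the 10 genes (1.98% of all genes), and number 2 above all of number 1 for Igf1 alone (1.15% of all genes). Cortex 3 was among the 4 highest libraries for 10 of 10 genes, hippocampus 2 for 8, cerebellum 3 for 7 and striatum 2 for 5. Cortex 2, striatum 1, cerebellum 1 and cerebellum 2 were there for none. The share of the sum of squares between the 3 numbers had a median of 52.3% for the 10 genes and 19.7% for all genes. For 8 genes it was larger than the share between regions. For Clec7a the share between numbers was 30.7% and that between regions 37.9%, and for Fabp5 they were 8.10% and 37.5%. This split was noticed after the values were seen, and what a number stands for is not given in the sources used here.

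**Figure D4:**
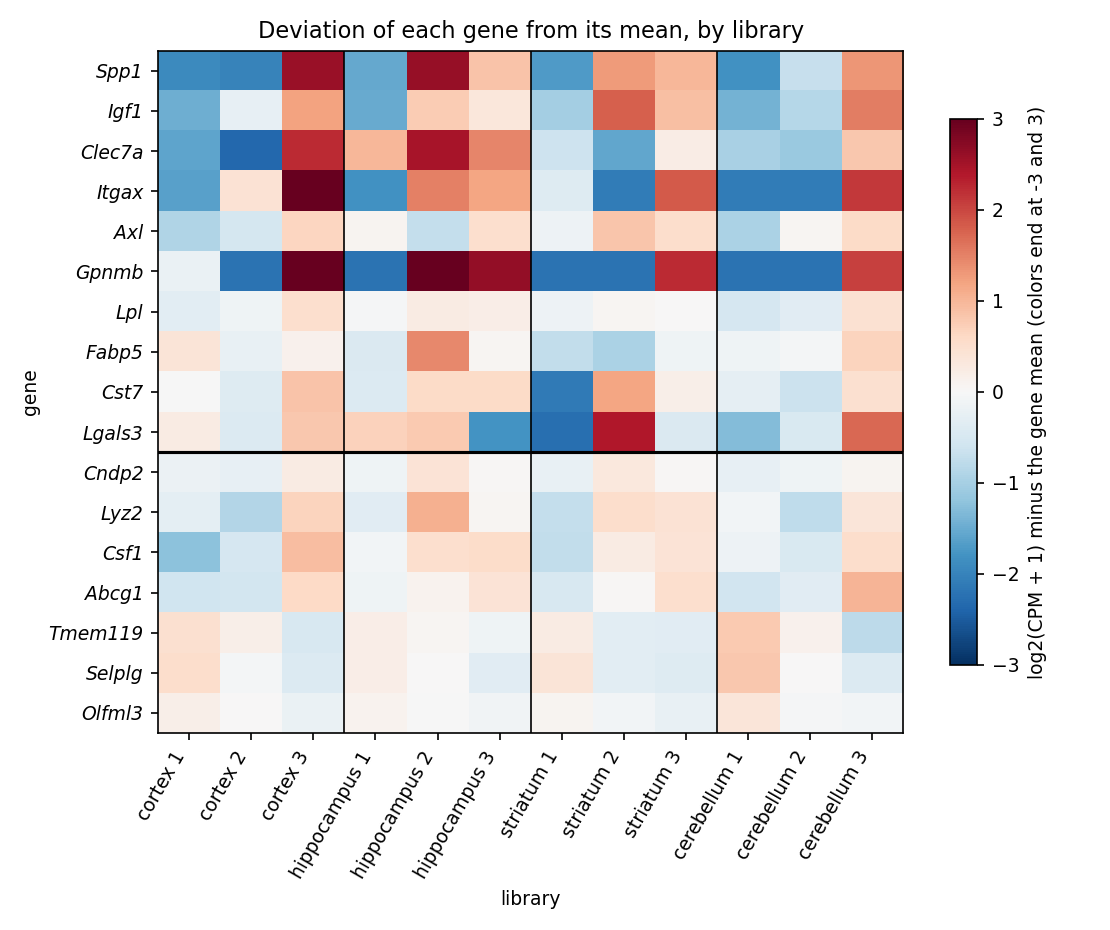
Log2(CPM + 1) of each gene minus its mean over the 12 libraries (color; scale ends at −3 and 3), with the 10 genes above the black line and 7 others below it, and the libraries grouped by region. Cortex 3, hippocampus 2 and cerebellum 3 are red for most of the 10 genes, and Tmem119, Selplg and Olfml3 are blue in cortex 3 and cerebellum 3.

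Most of the 10 genes were high in the same libraries. Over the 12 libraries, which share depth and amplification within each library, the 45 pairs had a median Pearson r of 0.544 on log2 CPM, against 0.0196 over all pairs of tested genes. A value of at least 0.7 was reached by 12 of the 45 pairs (26.7%) and by 5.72% of all gene pairs. The closest pair was Spp1 and Igf1 (r = 0.87, Spearman rho = 0.76), followed by Spp1 and Lpl (r = 0.83, rho = 0.83) and Itgax and Gpnmb (r = 0.81, rho = 0.77). Igf1 and Lpl (0.79), Itgax and Lpl (0.78), Spp1 and Gpnmb (0.76), Clec7a and Gpnmb (0.74), Gpnmb and Lpl (0.73) and Clec7a and Lpl (0.72) came next. Lpl, whose range was the narrowest, was thus high in the same libraries as Gpnmb, whose range was the widest.

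Cst7 went with Lgals3 (r = 0.73; 0.21 without the 2 libraries farthest from the median of Cst7) and with Spp1 (0.70). The relation of Cst7 and Lgals3 therefore rested on those 2 libraries. That of Spp1 and Clec7a (0.71) fell to 0.47 without the 2 farthest. Axl was most like Igf1 (0.69) and ran slightly against Fabp5 (−0.32), whose strongest partner was Gpnmb (0.69). Without striatum 2, Spp1 and Gpnmb were at 0.89, Igf1 and Itgax at 0.91 instead of 0.57, and Igf1 and Gpnmb at 0.82 instead of 0.57. Striatum 2 had Spp1 at 217 and Igf1 at 124 CPM with no count of Itgax or Gpnmb. Within regions the median r was 0.588. After the means of the 3 library numbers were removed it was 0.359, and 3 pairs were at 0.7 or above. Of these, Spp1 with Clec7a (0.77) and Cst7 with Lgals3 (0.73) had been there before. Gpnmb with Fabp5 rose from 0.69 to 0.84.

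**Figure D5:**
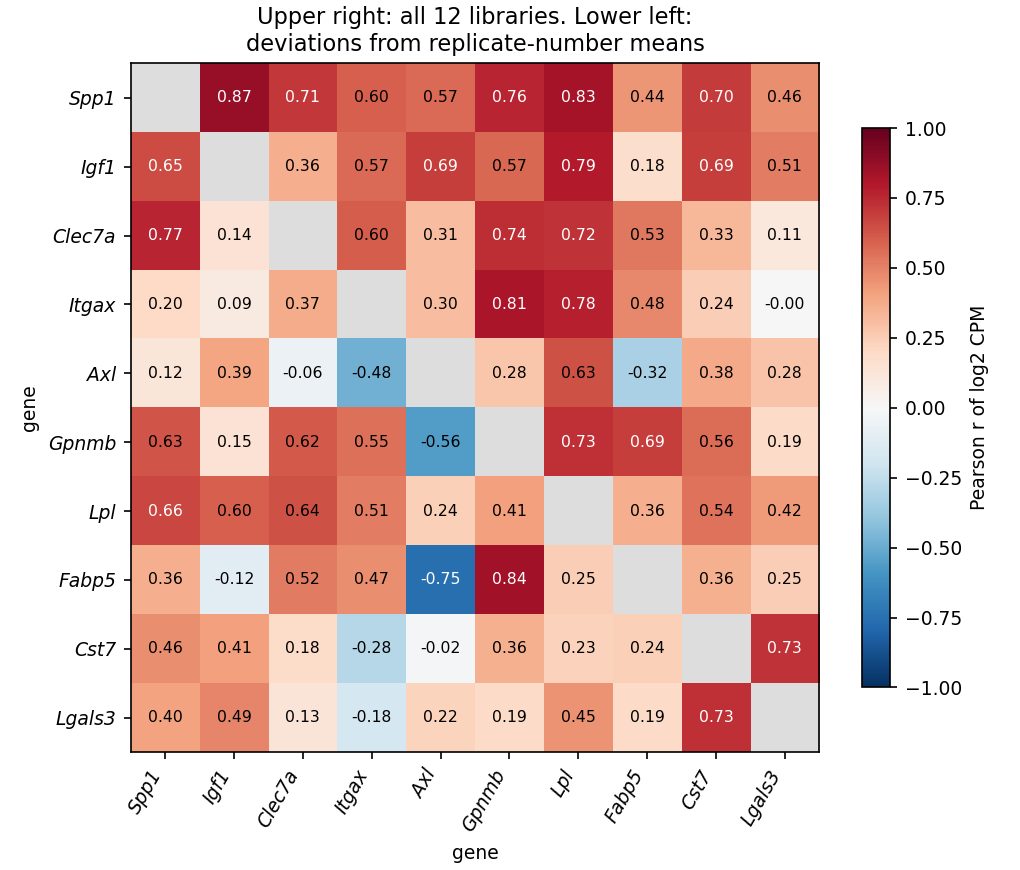
Pearson r of log2 CPM between pairs of the 10 genes, over the 12 libraries in the upper right and as deviations from the means of the 3 library numbers in the lower left. The upper right is mostly red, with 0.87 for Spp1 and Igf1, and the lower left is paler, with 0.65 for the same pair.

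Among 8293 other genes with a mean of at least 10 CPM, those with the pattern most like a member are named by the lower of 2 correlations, over 12 libraries and over the 11 without striatum 2, and the r over 12 libraries is given. Spp1 was most like Cndp2, a dipeptidase (r = 0.94), and Lyz2, lysozyme of macrophages (0.89). Lyz2 ran from 274 CPM in cortex 2 to 1060 in hippocampus 2. Igf1 was most like Rab11fip5 (0.92) and Map4k3 (0.92), and Clec7a like Cd83 (0.93) and Plin2, a coat protein of lipid droplets (0.855). Plin2 was also most like Gpnmb (0.90), followed by Oxct1 (0.84), and stood at 317 CPM in cortex 3 and 372 in hippocampus 2 against 106 to 236 in the other libraries.

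Lpl was most like Ank, a transporter of pyrophosphate, and Lilrb4, an inhibitory receptor of myeloid cells (0.89 each). Lilrb4 was at 1.51 to 13.8 CPM in the number-1 libraries and at 15.3 to 39.0 in those with number 3. Axl was most like Esyt1 (0.97) and Spire1 (0.94), Itgax like Ipo11 (0.91) and Man1c1 (0.86), and Fabp5 like Adi1 (0.83) and Mta3 (0.79). Cst7 was most like Noc3l (0.87) and Galk2 (0.86), and Lgals3 like Ing4 (0.88) and Snx8 (0.845). With 12 libraries and 8293 genes to choose from, high values arise for many genes, and these are descriptions only.

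Genes listed beside the 10 were tested in the same fits. Of 199 tested genes on the pathway and marker lists, 0 passed over the 4 regions and 0 in any pair (edgeR; smallest adjusted p = 0.798), and 3 were at an unadjusted p under 0.05 over the 4 regions. These were Csf1r, the growth factor receptor that microglia depend on, Kdr of endothelium and Kl of choroid plexus (unadjusted p = 0.0441, 0.0190 and 0.0193). Kdr was at 8.59 CPM or lower in all libraries, and Kl was above 4 CPM in striatum 2 alone, at 28.9.

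The other disease-associated genes shared the library pattern in part. Of 34 tested, 12 correlated with Spp1 at 0.7 or more (35.3%, against 0.851% of all genes). Among them were the lysosomal proteases Ctsb and Ctsd, the tetraspanin Cd63, the growth factor Csf1, the metalloprotease inhibitor Timp2 and the chemokine Ccl3. With the other members the count was 7 for Lpl, 5 each for Igf1 and Clec7a, 3 for Gpnmb and 2 for Itgax. It was 1 each for Axl, Cst7 and Lgals3 and 0 for Fabp5. Over all 12217 genes the count was 769 for Axl and 62 to 286 for each of the others. In 8 of the 34 (23.5%, against 4.62% of all genes) all number-3 libraries exceeded all number-1 libraries, and in 1, Cd52 (2.94%, against 4.89%), all lay below. Csf1, the ligand of Csf1r, was at 104 to 148 CPM in number 3 and at 32.7 to 73.1 in number 1. Hpse, heparanase, ran from 11.98 to 39.1 CPM in number 3 and from 0 to 8.01 in number 1. Of 15 proliferative-region genes, Anxa5, Plin2, Colec12 and Pld3 had the higher order (26.7%).

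Among 19 tested lipid handling partners, 6 had number 3 above number 1 (31.6%, against 4.62% of all genes): Apoc1, Lipa, Abca1, Abcg1, Soat1 and Scd2. Abca1, the exporter of cholesterol, was at 517 to 1271 CPM in number 3 and at 110 to 295 in number 1. Abcg1, which exports cholesterol to lipoproteins, was at 113 to 174 against 56.1 to 77.2. Receptors and ligands (2 of 24 above and 2 below, 8.33% each) and transcription factors (1 of 22 each way, 4.55%) were near the shares of all genes, 4.62% above and 4.89% below. Of 8 cathepsins and cystatins on a list of their own 0 lay above, and Cst3 and Ctss lay below (25%). The cathepsins Ctsb and Ctsd, counted above with the other disease-associated genes, had number 3 above number 1.

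Some homeostatic genes ran the other way. In 6 of 22 (27.3%), namely Tmem119, Cst3, Selplg, Siglech, Olfml3 and Ltc4s, all number-3 libraries lay below all number-1 libraries, in 0 all lay above, and 4.89% of all genes had the lower order. Tmem119, the gene of the sorting antigen, was at 1082 to 1712 CPM in number 3 and at 2134 to 3241 in number 1. Its correlation with Spp1 was −0.75 and with Igf1 −0.87. Selplg was at 964 to 1025 CPM against 1476 to 2240. The median r of the 22 genes was −0.31 with Spp1 and −0.51 with Lpl, against −0.06 and −0.02 over all genes. P2ry12 was not among the 6: it was at 4292 to 4436 CPM in number 3 and at 4171 to 6406 in number 1.

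Markers of other cells moved with some of these values. The sum of 12 border-associated macrophage markers, mostly Mrc1 and Stab1, ran from 687 to 1601 CPM in cortex, 763 to 1293 in hippocampus, 906 to 2222 in striatum and 664 to 1653 in cerebellum, with 0 to 5 of the 12 at 0 in a library. F13a1 (21.4 to 66.1 CPM in number 3, 1.07 to 18.3 in number 1) and Lyve1 (4.19 to 23.4 and 0 to 3.37) had the order of Spp1. They were 2 of 10 tested markers of this list (20%, against 4.62% of all genes). The 10 markers had a median r of 0.45 with Spp1, with Cp at −0.05. Over the members, this median ran from 0.17 with Fabp5 to 0.57 with Cst7. With Cst7, 5 markers were at 0.7 or more (107 of all 12217 genes), among them Pf4 (0.89), and Ms4a7 was at −0.22. With Axl, 3 were (769 of all genes), among them Stab1 (0.85) and Mrc1 (0.82), and Cp was at −0.315. Hippocampus 2, the library highest in Spp1, had a marker sum of 763, the lowest of its region, with F13a1 at 7.85. Folr2, on the same list, was highest in that library at 29.7 CPM, against 3.43 to 22.0 in the other 11, and had an r of 0.76 with Spp1. The part of these cells in the results was not tested.

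The sum of 8 astrocyte markers also followed the library number, at 86.9 to 123 CPM in number 3 and 41.3 to 77.6 in number 1, with 0 to 4 of the 8 at 0 in a library. Most of it was Slc1a3, a glutamate transporter, at 68.6 to 85.5 CPM in number 3 and 33.4 to 56.4 in number 1, with an r of 0.78 with Spp1 and 0.83 with Igf1. Slc1a3 was the only 1 of 7 tested astrocyte markers with all number-3 libraries above all number-1 libraries (14.3%, against 4.62% of all genes). Aldoc had an r of 0.74 with Gpnmb, and the water channel Aqp4 was at most 1.87 CPM, with 0 in 8 libraries. The sum of 7 oligodendrocyte markers ran the other way, at 99.9 to 144 CPM in number 3 and 169 to 200 in number 1. Cnp, 1 of 5 tested oligodendrocyte markers, had the lower order (20%, against 4.89% of all genes). Nrgn and Stmn2, 2 of 6 tested neuron markers, had it too (33.3%). The part of RNA from these cells in the results was not tested.

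The sum of 8 choroid plexus and ependyma markers was 0.0760 to 115 CPM in cortex, 0.316 to 57.3 in hippocampus, 47.6 to 876 in striatum and 0.579 to 296 in cerebellum, with 0 to 7 of the 8 at 0 in a library. Striatum 2 held 580 CPM of Ttr, transthyretin, together with the highest Igf1. Hippocampus 3 had 0 counts of Ttr, with Spp1 at 161 CPM and Gpnmb at 27.7. Igf1 had a median r of 0.70 with the 6 tested markers of this list, and Gpnmb 0.08. Their part in the Igf1 values was not tested. Sums of monocyte markers were at most 18.2 CPM, with Ly6c2 at 0 in all 12 libraries, and those of neutrophil markers at most 0.940. The correlations of the 10 genes with log2 total count ran from −0.34 to 0.34, and Axl was related inversely to the number of genes above 0 (r = −0.60, n = 12).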

How the data were processed

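Counts of reads per gene symbol, whole numbers without normalization, were deposited by the authors for the 12 libraries. Per the labels' protocols, RNA was copied with Smart-Seq v4, which does not mark strand, and amplified for 9 cycles before Nextera XT libraries of 13 cycles. Per the submitters' processing notes, Trim Galore 0.4.3, STAR 2.5.3a, Picard, HTSeq and mm10 were used. The annotation and the strand setting were not given in the sources used here.

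Genes were kept with filterByExpr (minimum count 10) and fitted over all 12 libraries in edgeR 4.0.16 (R 4.3.3) with TMM and the robust quasi-likelihood test, adjusted by Benjamini-Hochberg over 12217 genes at 0.05. Levels are CPM with TMM-scaled library sizes. Spread and correlation used log2 CPM with a prior count of 2 and carry no test. limma-voom (limma 3.58.1), DESeq2 1.42.0, other scalings, no filter, a replicate block and leaving out each library were alternatives. The fits were tested on simulated data. Sequences are RefSeq's, and exon lengths and overlaps are from GENCODE.

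The members and lists were chosen with earlier results of these data known. Named were the 10 genes, Tmem119 and P2ry12, per list up to 3 genes with the smallest p over the regions (printed where a result turned on them), and per member 2 genes of like pattern (predicted, RIKEN and ribosomal protein genes left out). Other genes named were chosen after their values were seen. An item of these lists is not reported here.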

Additional observations from a re-analysis of the deposited data

How the results depend on the processing

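The count of the 10 genes called was 0 under all alternatives, over the 4 regions, in the pairs and for cerebellum against the mean. The smallest adjusted p of any of them was 0.596, in edgeR without striatum 3. Unadjusted, edgeR put 6 of the comparisons of the 10 genes in pairs under 0.05 without cortex 3 and 5 without cerebellum 3. It put 1 there without cortex 2, 1 without hippocampus 1, and 0 without any other library. Beside Clec7a, these were comparisons of Spp1, Axl, Itgax, Lpl and Fabp5. Over the 4 regions, Clec7a alone was under 0.05, without cortex 3 (edgeR, unadjusted p = 0.00403). DESeq2 called 5 of all genes over the 4 regions and 30 in the 6 pairs, where edgeR called 0. With 11 of the 12 libraries, edgeR called 0 of all genes. The count of the 7 genes with number 3 above number 1 was then 7 to 8. Apart from rescaling, leaving out a library cannot lower that count, so this is no check of it. The median log2 ratio of the highest to the lowest region mean was 1.06, and 0.87 to 2.25 with a library left out, the highest without cerebellum 3. The median correlation of 0.544 fell to 0.359 as deviations from the library-number means and was 0.500 to 0.607 with a library left out. The median share between regions ran from 6.60% to 25.6%.

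Sign was followed for a single difference per gene, that of the pair of regions with the smallest p in edgeR. None of these differences had passed, and the sign changed in 5 of 180 alternatives. The differences of the other pairs were not followed in this way. Spp1 in cerebellum minus hippocampus was −1.29 and became 0.079 without hippocampus 2, with a range of −2.65 to 0.079 over the libraries left out. Itgax in striatum minus cortex was −1.19 and became 1.098 without cortex 3 (range −3.45 to 1.098) and 0.12 with the replicate block. Lgals3 in striatum minus hippocampus was 0.90 and became −0.83 in limma-voom and −1.87 without striatum 2 (range −1.87 to 1.49). The cause was not tested.

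With the replicate number as a block, 0 genes were called and 222 were at an unadjusted p under 0.05 over the 4 regions. Clec7a was then at an unadjusted p under 0.05 over the 4 regions and in 3 pairs (adjusted p = 0.897 to 1.00), against none without the block. The deviations of same-numbered libraries of different regions correlated at −0.12 to 0.287 over 18 pairs (median 0.0263), 4 of them over 0.1. Those of differently numbered libraries correlated at −0.225 to 0.198 over 36 pairs (median −0.0129), 2 of them over 0.1. The 2 ranges overlap, so this check cannot decide whether the numbers pair the libraries. The labels give no pairing. Some alternatives were chosen after seeing the data: the deviations from number means, the 2 farthest libraries left out, and all of those on the order of numbers. The number of libraries, 3 a region, limits the precision, and depth limits values near the floor of 3 counts (0.194 to 0.485 CPM).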
